A study of Mus musculus with 30 samples.

Results

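The neuregulins and the ligands of the epidermal growth factor (EGF) family were described in mesenchymal cells sorted from mouse small intestine (SI) and colon. The members were taken by gene symbol from a fixed list and are *Nrg1*, *Nrg2*, *Areg*, *Ereg*, *Hbegf*, *Btc* and *Tgfa*, 7 of the 32316 genes measured. All 7 passed the filter on low counts, which asked for at least 6 counts in at least 3 libraries. *Btc* reached 6 counts in 29 libraries and *Ereg* in 27, *Nrg1* and *Tgfa* in 22, *Nrg2* in 19, *Areg* in 17 and *Hbegf* in 11.

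RNA of 10 sorted populations was sequenced, with 3 libraries of each and 30 in all, from untreated C57BL6/Nrj mice 8 to 10 weeks old. Dead cells and cells positive for lineage markers, CD31, BP3 or EpCAM, or high for NCAM, were gated out of every sort. From the SI lamina propria came pericytes (PDGFRα-ESAM-1+PDPN-), smooth muscle cells (SMC, PDGFRα-ESAM-1+PDPN+), and 3 populations of ESAM-1- fibroblasts (FB). These were PDGFRα hi FB (PDGFRα hiCD34-), Fgfr2+ FB (PDGFRα intCD34-) and CD34+ FB (PDGFRα intCD34+), a gate whose label names both Igfbp5+ FB and CD81+ FB. From the colonic lamina propria came pericytes with the gate used in the SI and 4 populations of ESAM-1- FB. These were PDGFRα hi FB (PDPN+CD34-), Fgfr2+ FB (PDPN hiCD34+CD90-), CD90+ FB (PDPN hiCD34+CD90+) and CD81+ FB (PDPN intCD34+CD90-). The gates of PDGFRα hi FB and of Fgfr2+ FB thus differed between the tissues, and tissue and gate cannot be told apart in those comparisons. The labels state that the intestines came from 3 individual mice but do not say which libraries share a mouse, so a p-value here speaks of libraries and treats them as independent.

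EGF family ligands are made as membrane-anchored precursors that surface proteases release, and they bind the receptor tyrosine kinases EGFR, ERBB3 and ERBB4, with ERBB2 as a partner that has no ligand of its own. Bound receptors pair, phosphorylate each other and start the RAS, RAF, MEK and ERK cascade, which also induces its own inhibitors. In the gut the family is known for driving growth and repair of the epithelium, and stromal cells are among its sources.

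Levels are given as CPM, the estimated counts scaled by edgeR to TMM-normalized library sizes, and as mean ± SD of 3 libraries (n = 3). The total estimated count of a library lay between 2245052 (replicate 3 of SI Fgfr2+ FB) and 19096945, with a median of 9601683. The median of the 3 libraries was 7860140 in SI pericytes, 9512574 in SMC, 11729938 in SI CD34+ FB, 8041204 in SI PDGFRα hi FB and 10286761 in SI Fgfr2+ FB. In the colon it was 9314458 in pericytes, 16181861 in CD81+ FB, 15840424 in CD90+ FB, 9690792 in Fgfr2+ FB and 6986681 in PDGFRα hi FB. Levels of different genes are compared only as CPM per kb of effective transcript length. Differences are log2 fold changes with a standard error (SE, the absolute log2 fold change divided by √F of the test) from edgeR's quasi-likelihood test in 1 model of all 30 libraries. To be called, a gene needed an adjusted p below 0.05 (Benjamini-Hochberg, over the 17542 genes tested) and an absolute log2 fold change above 1.5. Where several populations stand on a side, the fold change compares averages of their log2 levels, which can differ in sign from the means in CPM. In bulk RNA, fewer cells of a type and less RNA per cell cannot be told apart.

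The transcripts behind the gates followed the labels in most cases. *Pdgfra* in PDGFRα hi FB was at 6517.1 ± 324.1 CPM in the SI and 2444.7 ± 87.6 CPM in the colon, and the next population, colonic CD81+ FB, was at 923.7 ± 203.2 CPM. *Esam* was at 109.7 ± 90.2 CPM in SI pericytes, 140.9 ± 67.0 CPM in colonic pericytes and 119.2 ± 28.8 CPM in SMC, and at most 1.74 CPM in any FB library. *Thy1*, the gene of CD90, reached 196.6 ± 51.3 CPM in colonic CD90+ FB but also 98.8 ± 35.0 CPM in colonic CD81+ FB, which were sorted as CD90-, and 221.3 ± 177.1 CPM in SI and 142.3 ± 97.0 CPM in colonic pericytes, whose gates do not use CD90. The summed level of the 6 pericyte markers was 41148.3 ± 8314.2 CPM in SI pericytes and 40537.5 ± 10279.3 CPM in colonic pericytes, led by *Rgs5*. That sum was 5364.5 ± 1905.0 CPM in SMC, 3922.5 ± 318.9 CPM in SI CD34+ FB, 3083.5 ± 278.1 CPM in SI PDGFRα hi FB and 2008.8 ± 151.0 CPM in SI Fgfr2+ FB, and at most 652.9 ± 117.8 CPM in a colonic FB population. The 6 smooth muscle markers summed to 19879.5 ± 2160.4 CPM in SMC, led by *Acta2*. Here and below, the gene that leads a list is the one with the highest CPM per kb.

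The 7 ligands made up different mixtures in the 10 populations. Their summed level per length was 241.3 ± 64.1 CPM per kb in colonic PDGFRα hi FB and 84.1 ± 31 CPM per kb in SI Fgfr2+ FB, and 15.3 ± 5.14 CPM per kb in colonic CD81+ FB, the lowest. *Nrg1* held 75.5 ± 7.42% of that sum in colonic PDGFRα hi FB, with 69.4% to 83.8% in its libraries. *Ereg* held the largest mean share in SI CD34+ FB (76.7 ± 5.25%), SMC (66.7 ± 23.3%), colonic CD90+ FB (64.0 ± 9.10%), SI Fgfr2+ FB (53.3 ± 1.29%), SI PDGFRα hi FB (47.6 ± 15%) and colonic CD81+ FB (36.2 ± 17.3%). *Hbegf* held 73.0 ± 6.77% in colonic pericytes and 68.9 ± 33.2% in SI pericytes. In colonic Fgfr2+ FB *Nrg1* (41.1 ± 17.2%) and *Ereg* (40.9 ± 17.9%) had shares within each other's spread.

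By position, *Ereg* (91074622 to 91093646), *Areg* (91139599 to 91148432) and *Btc* (91357261 to 91402994) lie on chromosome 5 in GRCm38, as does *Epgn* (91027464 to 91035215), a further ligand of EGFR. *Nrg1* lies on chromosome 8 (31814551 to 32884029) and *Tgfa* on chromosome 6 (86195223 to 86275719), while *Hbegf* and *Nrg2* both lie on chromosome 18. Reads of these genes are largely their own. Of the 31-base stretches of their transcripts, 10 of 4098 for *Ereg* and 19 of 4549 for *Btc* occur in another gene's transcripts, and 0 for each of the other 5 members.

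*Nrg1* encodes neuregulin 1, a ligand of ERBB3 and ERBB4. It was at 354.6, 459.9 and 359.2 CPM in the 3 libraries of colonic PDGFRα hi FB. It was at 102.9, 49.4 and 49.8 CPM in SI Fgfr2+ FB and at 36.2, 22.2 and 20.2 CPM in colonic Fgfr2+ FB. These 3 populations led in that order and no library of one overlapped the next. The level was 41.5, 30.2 and 4.73 CPM in SMC, 28.3, 33.7 and 6.20 CPM in SI PDGFRα hi FB, and 6.82, 14.3 and 8.59 CPM in colonic CD90+ FB. In both SMC and SI PDGFRα hi FB replicate 3 was the low library, and colonic Fgfr2+ FB, SMC, SI PDGFRα hi FB and colonic CD90+ FB each overlapped the next in order. The remaining populations were colonic CD81+ FB at 6.40, 0.189 and 0.250 CPM, colonic pericytes at 2.90, 0.882 and 0.216 CPM, SI CD34+ FB at 0.477, 0.959 and 0.322 CPM, and SI pericytes at 0.429, 0 and 0 CPM. Colonic CD81+ FB lay below colonic CD90+ FB without overlap, and these last 4 populations overlapped one another in order.

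*Ereg* encodes epiregulin, a ligand of EGFR and ERBB4. It was at 257.4, 128.1 and 147.1 CPM in SI Fgfr2+ FB, 150.5, 165.6 and 196.0 CPM for colonic PDGFRα hi FB, 159.5, 94.8 and 250.9 CPM in SMC and 143.9, 111.9 and 145.8 CPM in SI CD34+ FB. Each of these 4 populations overlapped the next. The level was 74.4, 109.2 and 96.4 CPM for colonic CD90+ FB, 62.4, 87.4 and 80.8 CPM for colonic Fgfr2+ FB, 72.5, 45.5 and 66.8 CPM in SI PDGFRα hi FB and 16.4, 25.8 and 16.9 CPM in colonic CD81+ FB. Colonic CD90+ FB lay below SI CD34+ FB without overlap, and colonic CD81+ FB lay below the other FB populations without overlap. Pericytes were lowest in both tissues, at 0.215, 0.631 and 0.861 CPM in the SI and 0.645, 0.252 and 0.503 CPM in the colon, below every other library.

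*Hbegf* encodes heparin-binding EGF-like growth factor, a ligand of EGFR and ERBB4. It was at 43.7, 37.3 and 75.3 CPM in colonic pericytes and at 32.2, 41.8 and 8.00 CPM in SI pericytes. In the other 24 libraries it lay between 0 and 3.09 CPM, with a median of 0.0801 CPM and no count in 10 of them. The pericytes of both tissues thus stood above every other library and overlapped each other, with SI replicate 3 the lowest of them.

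**Figure D1:**
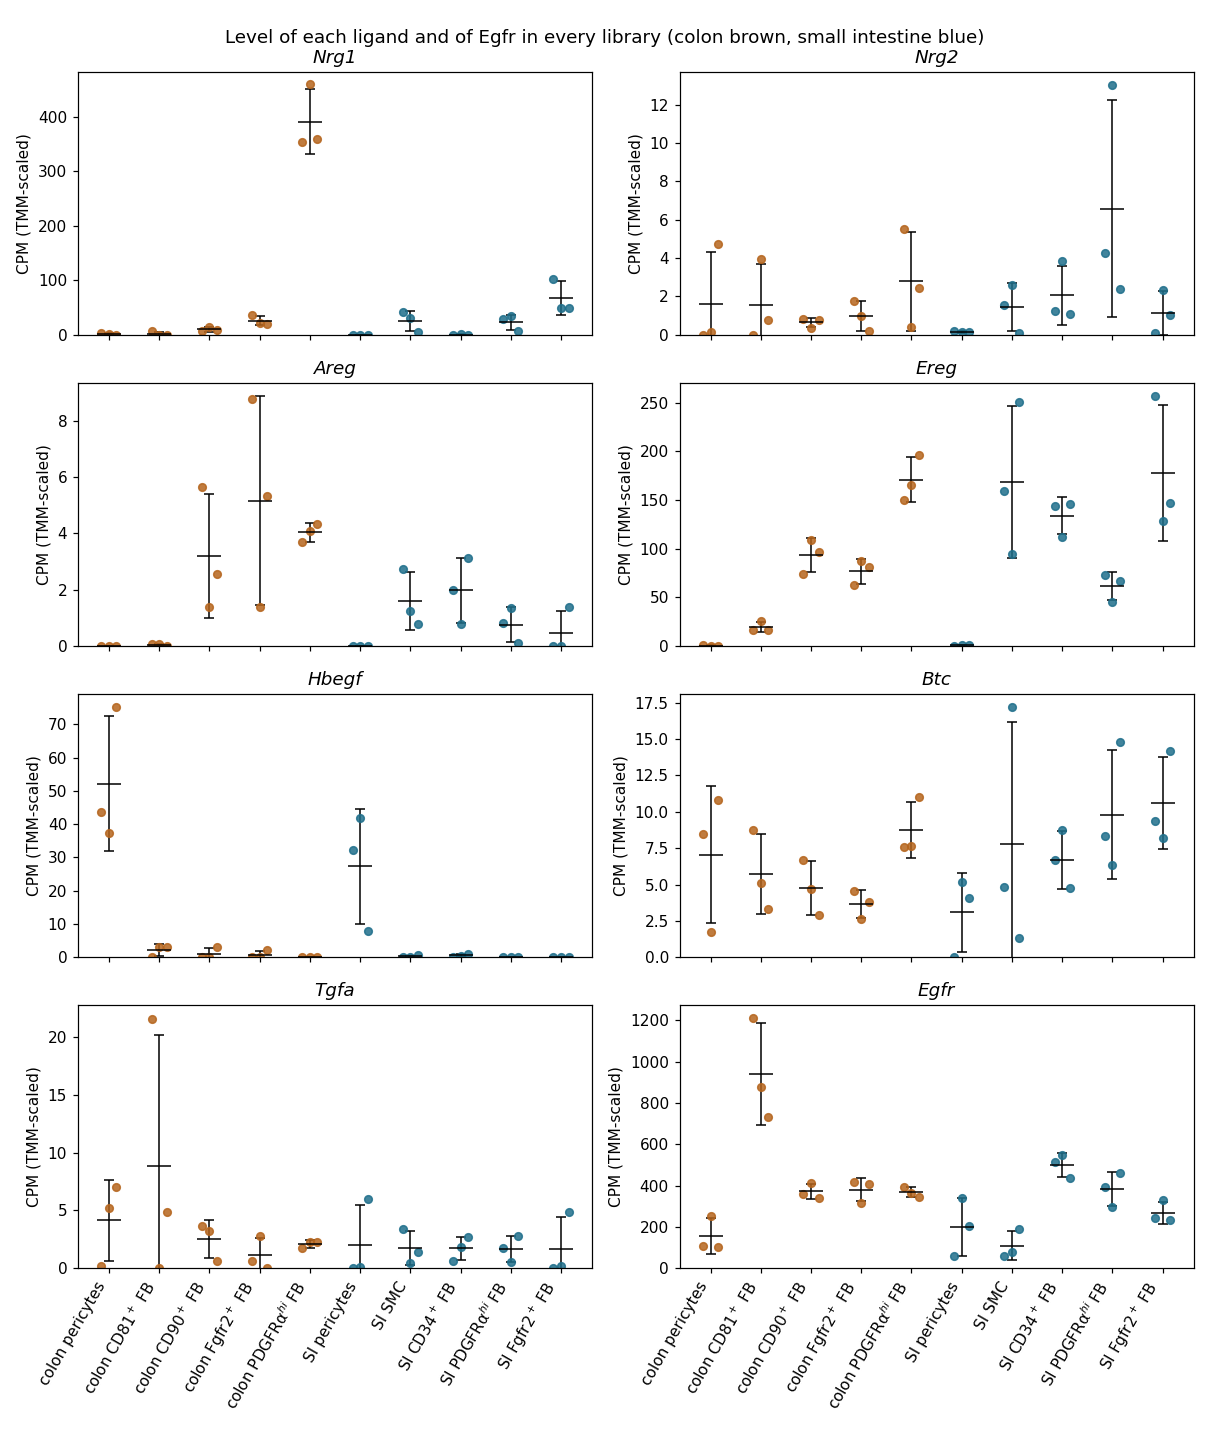
Level of the 7 ligands and of *Egfr*, the most abundant receptor gene, in CPM (vertical axes) in each of the 10 populations (horizontal axes, colon brown and SI blue), with 1 point per library, the mean as a line and the SD of 3 libraries as an error bar clipped at 0. *Nrg1* stands at 354.6 to 459.9 CPM in colonic PDGFRα hi FB, *Ereg* is lowest in pericytes, and *Hbegf* is at 8.00 CPM or above in pericytes and at most 3.09 CPM elsewhere.

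The remaining 4 ligands were low throughout. *Areg*, which encodes amphiregulin, had no count in any of the 6 pericyte libraries, and was highest in colonic Fgfr2+ FB at 8.78, 1.37 and 5.33 CPM, with 3.68, 4.08 and 4.34 CPM in PDGFRα hi FB of the colon and, for colonic CD90+ FB, 5.63, 1.39 and 2.54 CPM. These 3 populations overlapped. *Btc*, which encodes betacellulin, was the most even member, with 0 to 17.2 CPM over the 30 libraries, a median of 6.5 CPM and overlap between all neighbours in order. *Tgfa*, which encodes transforming growth factor alpha, had a median of 1.79 CPM and its highest mean in colonic CD81+ FB, where 21.5, 0 and 4.91 CPM show that replicate 1 carries it. *Nrg2*, a further neuregulin, had a median of 1.01 CPM and its highest mean in SI PDGFRα hi FB at 4.29, 13 and 2.41 CPM. *Btc*, *Tgfa* and *Nrg2* were called in none of the 11 comparisons by edgeR in the model of 30 libraries.

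Colonic PDGFRα hi FB carried more *Nrg1* and *Ereg* than the other colonic FB. *Nrg1* was at 391.2 ± 59.5 CPM against a mean of 12.8 CPM over CD81+, CD90+ and Fgfr2+ FB, and *Ereg* at 170.7 ± 23.2 CPM against 63.3 CPM. All 3 PDGFRα hi FB libraries lay above all 9 of the others for both genes. By edgeR's quasi-likelihood test, 2 of the 7 members were called, both higher, while 3.51% of all tested genes were called, 2.21% higher and 1.3% lower. The log2 fold change was 5.54 (SE 0.69, adjusted p = 3.06e-06) for *Nrg1* and 1.71 (SE 0.30, adjusted p = 0.000348) for *Ereg*. *Areg* differed by 2.02 (SE 1.01, adjusted p = 0.453) and did not pass. The 6 smooth muscle markers summed to 1384.8, 1279.8 and 2324.5 CPM in colonic PDGFRα hi FB, led by *Acta2*, and to at most 449.0 CPM in a library of the other colonic FB, with 4 of 6 called higher and 1 lower. Of 3 markers of interstitial cells of Cajal, led by *Etv1*, 2 were called higher, at sums of 229.9, 290.9 and 237.6 CPM against at most 124.5 CPM, and of 6 pericyte markers, led by *Kcnj8*, 3 were called higher, at sums of 454.2, 407.3 and 480.1 CPM that lay below those of colonic Fgfr2+ FB. Without PDGFRα hi replicate 1, *Cspg4* (1.44, adjusted p = 0.103) and *Kcnj8* (2.25, 0.0997) were not called, without replicate 2 *Etv1* (1.76, 0.0514), *Kcnj8* (2.09, 0.16) and *Des* (-1.48, 0.166), and without replicate 3 *Actg2* (2.29, 0.0544), *Cspg4* (1.5, 0.0825), *Des* (-1.71, 0.0911) and *Kcnj8* (2.28, 0.0913). *Kcnj8* was also lost without any 1 of 5 of the other 9 libraries, and *Cspg4* without CD81+ FB replicate 1, where it missed the fold threshold. The immediate early genes summed to less there, as given below, and the part of these lists in these results was not tested.

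In the SI, PDGFRα hi FB were compared with CD34+ and Fgfr2+ FB, and 0 of the 7 members were called by edgeR, with 3.38% of all tested genes called (1.68% higher and 1.7% lower). At an unadjusted p below 0.05 there were 2 members, and DESeq2 also called 0. *Ereg* was at 61.6 ± 14.2 CPM in PDGFRα hi FB and below every library of the other SI FB, with a difference of -1.32 in log2 (SE 0.36, adjusted p = 0.0336 by edgeR) that missed the fold threshold. *Nrg1* was at 22.7 ± 14.6 CPM in SI PDGFRα hi FB, between SI Fgfr2+ FB at 67.4 ± 30.8 CPM and SI CD34+ FB at 0.586 ± 0.332 CPM. Its fitted difference of 1.83 in log2 (SE 0.78, adjusted p = 0.315) is positive although its mean of 22.7 CPM is below the 34.0 CPM of the other side, since logs were averaged there. Markers of other cell types also differed. Of the smooth muscle markers *Acta2* (3.09 in log2), *Tagln* (3.79) and *Myh11* (3.85) were called higher by edgeR. *Actg2* (-0.48), *Des* (0.17) and *Cnn1* (0.06) were not called, and their means in CPM were lower in PDGFRα hi FB than on the other side. Means in PDGFRα hi, CD34+ and Fgfr2+ FB were 1533.3, 44.8 and 253.5 CPM for *Myh11* and 1784.1, 23.3 and 41.2 CPM for *Abcc9*. *Rgs5* went the other way, at 260.3, 3801.4 and 1708.5 CPM. *Kit* (5.25 in log2) was called higher and *Notch3* (-1.93) lower, calls lost without some single libraries. The part of these markers in the SI PDGFRα hi FB results, here and below, was not tested.

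Between the tissues, *Nrg1* was lower in SI than in colonic PDGFRα hi FB. The means were 22.7 and 391.2 CPM, and the highest SI library (33.7 CPM) lay far below the lowest colonic one (354.6 CPM). The log2 fold change was -4.10 (SE 1.02, adjusted p = 0.0428 by edgeR), and 1 of the 7 members was called where 0.963% of all tested genes were (0.336% higher and 0.627% lower). The call was lost without any 1 of the 6 libraries, at -3.66 (adjusted p = 0.261) without SI replicate 3, -4.29 (0.177) without SI replicate 1, -4.51 (0.129) without SI replicate 2, -3.97 (0.127) without colonic replicate 2, -4.16 (0.0967) without colonic replicate 3 and -4.17 (0.0947) without colonic replicate 1. *Ereg* was at 61.6 and 170.7 CPM without overlap, with a difference of -1.47 in log2 (SE 0.40, adjusted p = 0.0821), and was not called by edgeR, whereas DESeq2 called it at -1.51 (adjusted p = 0.00201, with 0.00201 to 0.442 over the alternatives). The 6 pericyte markers summed to 2925.3, 3404.7 and 2920.6 CPM in SI and 454.2, 407.3 and 480.1 CPM in colonic PDGFRα hi FB, led by *Kcnj8* in both, and 2 of 6 were called higher in the SI, *Abcc9* (3.13 in log2) and *Rgs5* (2.29). The smooth muscle markers summed to 2252.3, 3740.8 and 2593.8 CPM in the SI, which overlapped the colon, with *Des* called higher (3.83). Of 3 markers of interstitial cells of Cajal, *Ano1* was called lower in the SI (-6.37). *Kit* and *Etv1* went the other way without overlap. Their means were 19.7 and 448.5 CPM in the SI and 0.717 and 173.2 CPM in the colon. Of 10 immediate early genes 0 were called by edgeR, with 5 at an unadjusted p below 0.05 and 1 called by DESeq2. The part of these lists in the *Nrg1* difference was not tested.

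In Fgfr2+ FB 0 of the 7 members were called between the tissues by edgeR, with 1.45% of all tested genes called (0.513% higher and 0.941% lower), 2 members at an unadjusted p below 0.05 and 0 called by DESeq2. Here the SI libraries lay above the colonic ones for *Nrg1* (67.4 and 26.2 CPM, 1.36 in log2, SE 0.92, adjusted p = 0.579) and for *Ereg* (177.5 and 76.9 CPM, 1.21 in log2, SE 0.40, adjusted p = 0.15), without overlap and without passing the test. Without SI replicate 3, the smallest library, 1 member was called, *Areg*.

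Whether the tissue difference differed between PDGFRα hi FB and Fgfr2+ FB was tested as an interaction. *Ereg* passed, with a difference of -2.68 (SE 0.57, adjusted p = 0.0171 by edgeR) between the tissue difference in PDGFRα hi FB and that in Fgfr2+ FB, on the log2 scale. It was 1 of 7 members called, where 0.661% of all tested genes were (0.353% above 0 and 0.308% below). The call was lost without any 1 of 5 of the 12 libraries: -2.31 (adjusted p = 0.0729) without SI Fgfr2+ FB replicate 1, -2.50 (0.0704) without SI PDGFRα hi FB replicate 2, -2.57 (0.0632) without colonic PDGFRα hi FB replicate 3, and -2.55 (0.0547) and -2.72 (0.0505) without colonic Fgfr2+ FB replicates 1 and 3. In the same test 1 of 6 pericyte markers was called above 0 (*Abcc9*, 3.75), 1 of 3 markers of interstitial cells of Cajal below 0 (*Ano1*, -6.66) and 2 of 10 immediate early genes above 0, and 0 of 6 smooth muscle markers by edgeR, with 3 at an unadjusted p below 0.05 and 0 by DESeq2. *Kit* and *Etv1* lay higher in SI than in colonic PDGFRα hi FB, as given above. In Fgfr2+ FB they differed between the tissues by 0.82 and 0.50 in log2, and neither was called. Between SI and colonic Fgfr2+ FB, *Des* (2.47), *Rgs5* (1.96) and *Myh11* were called higher in the SI, *Des* not with only the libraries compared (2.51, adjusted p = 0.0671) and *Myh11* not without colonic replicate 1 (2.14, 0.0834) or 2 (1.75, 0.148) or SI replicate 1 (2.13, 0.0549) or 2 (1.93, 0.0857). The smooth muscle markers summed to 703.1, 877.3 and 519.1 CPM in SI and 217.3, 223.2 and 449.0 CPM in colonic Fgfr2+ FB, led by *Acta2*, and the pericyte markers to 2148.3, 1848.4 and 2029.7 CPM and 537.0, 649.1 and 772.6 CPM, led by *Rgs5*. The part of these lists in the *Ereg* call was not tested. For *Nrg1* the difference was -5.47 (SE 1.36, adjusted p = 0.0572), so it was not shown to differ by edgeR in the model of 30 libraries, while 5 of the alternatives called it, among them DESeq2 at -5.55 (adjusted p = 0.00178, with 0.000696 to 0.19 over the alternatives).

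SI CD34+ FB held almost no *Nrg1* beside SI Fgfr2+ FB. The means were 0.586 ± 0.332 and 67.4 ± 30.8 CPM, and the populations did not overlap. The log2 fold change was -6.80 (SE 1.19, adjusted p = 0.00165 by edgeR), the only call among the 7 members where 1.21% of all tested genes were called (0.838% higher and 0.376% lower). *Ereg* was at 133.9 ± 19.0 and 177.5 ± 69.8 CPM and overlapped (-0.41 in log2, SE 0.39, adjusted p = 0.8). The *Cd34* transcript behind the gate was at 629.0 and 85.8 CPM. The 10 immediate early genes summed to 4023.2, 3331.1 and 5272.7 CPM in CD34+ FB and 785.0, 615.0 and 714.0 CPM in Fgfr2+ FB, led by *Egr1* in both. The 6 smooth muscle markers summed to 135.9, 116.2 and 147.9 CPM in CD34+ FB and 703.1, 877.3 and 519.1 CPM in Fgfr2+ FB, led by *Acta2* in both, and 3 of 6 were called lower in CD34+ FB, *Acta2* (-2.59 in log2), *Myh11* (-2.50) and *Des* (-2.15). The *Des* call by edgeR was lost without CD34+ FB replicate 1 (-2.22, adjusted p = 0.0544), 2 (-2.20, 0.0659) or 3 (-2.10, 0.0805) or Fgfr2+ FB replicate 1 (-1.72, 0.127). Of the pericyte markers *Kcnj8* alone was called, lower in CD34+ FB (-4.28, adjusted p = 0.0184 by edgeR) at 1.09 against 21.3 CPM. That call was lost without CD34+ FB replicate 2 (-3.89, adjusted p = 0.138) or 3 (-3.97, 0.13), without Fgfr2+ FB replicate 2 (-3.38, 0.125) and with only the libraries compared (-4.35, 0.0569). *Rgs5* lay the other way, at 3801.4 against 1708.5 CPM, and was not called. Of 6 fibroblast markers 4 were called higher in CD34+ FB. The part of these lists in the *Nrg1* difference was not tested.

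Colonic CD81+ FB held less *Ereg* than colonic CD90+ and Fgfr2+ FB. The mean was 19.7 ± 5.29 CPM against 85.1 CPM, and no library overlapped. The log2 fold change was -2.10 (SE 0.38, adjusted p = 0.00176 by edgeR), 1 of 7 members called where 1.57% of all tested genes were (0.958% higher and 0.61% lower). *Nrg1* differed by -2.82 (SE 0.92, adjusted p = 0.134) and was not called, but without CD81+ FB replicate 1, the library at 6.40 CPM, it was called at -6.14 (adjusted p = 0.00201). *Areg* had 2 counts over the 3 CD81+ FB libraries, a ratio of CD90+ and Fgfr2+ FB to CD81+ FB of 84.9 (95% counting interval 23.5 to 701), and was not called by edgeR (adjusted p = 0.0638). DESeq2 called all 3 of these ligands, with *Areg* at an adjusted p of 0.00162 (0.00162 to 0.18 over its alternatives) and *Nrg1* at 0.013 (0.00201 to 0.381). The immediate early genes summed to 9607.6, 14379.8 and 9244.7 CPM in CD81+ FB, above every library of CD90+ FB (2385.9, 3291.4 and 4399.3 CPM) and Fgfr2+ FB (3966.5, 8552.4 and 8241.6 CPM), led by *Egr1* in each. Of these 10 genes 0 were called by edgeR (median 1.40, all genes 0.04), with 9 at an unadjusted p below 0.05 and 1 called by DESeq2. Of the 6 smooth muscle markers 2 were called lower in CD81+ FB, *Actg2* (-4.01 in log2) and *Acta2* (-2.79), as was the pericyte marker *Rgs5* (-2.66). The *Actg2* call by edgeR was lost without CD81+ FB replicate 1 (-3.89, adjusted p = 0.0514) or 2 (-3.44, 0.0702) and with only the libraries compared (-3.95, 0.0997). The part of these lists in the *Ereg* difference was not tested.

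Pericytes differed from FB in 4 of the 7 members in each tissue by edgeR, 1 higher and 3 lower, while DESeq2 called 5 in the SI and 4 in the colon. Of all tested genes 16.6% were called in the SI (9.48% higher and 7.07% lower) and 16% in the colon (9.29% higher and 6.7% lower). *Hbegf* was higher in pericytes, with a difference of 7.85 in log2 (SE 1.23, adjusted p = 2.42e-05 by edgeR) in the SI and 6.59 (SE 1.02, adjusted p = 1.82e-05) in the colon. Its means were 27.3 against 0.203 CPM and 52.1 against 0.966 CPM, without overlap. *Ereg* was lower, by -7.53 (SE 0.53, adjusted p = 1.86e-11) in the SI and -7.17 (SE 0.52, adjusted p = 1.66e-11) in the colon, at 0.569 against 124.3 CPM and 0.467 against 90.2 CPM, again without overlap. These are comparisons with separate libraries, and the difference between the tissues in them was not tested.

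*Nrg1* and *Areg* were the other called pair in pericytes. *Nrg1* had 2 counts over the 3 SI pericyte libraries, a ratio of FB to pericytes of 313 (95% counting interval 86.6 to 2584.2, adjusted p = 0.000782 by edgeR), and the SI pericyte libraries overlapped those of CD34+ FB. The ratio uses the FB mean of 30.2 CPM, which SI Fgfr2+ FB at 67.4 CPM carried most of, while the p-value belongs to the fitted difference between averages of logs, -6.40 in log2 (SE 1.32), a value that at so few counts depends on the prior count of the fit. Both counts were in SI pericyte replicate 1, and without it the difference was at least 80.8-fold, while the ratio was 193.3 without replicate 2 and 190.1 without replicate 3. In the colon it was at 1.33 ± 1.4 CPM in pericytes against a mean of 107.4 CPM in FB (-4.05 in log2, SE 0.98, adjusted p = 0.00346), and overlapped CD81+ FB. *Areg*, with no count in pericytes, was at least 2.29-fold lower than in SI FB (adjusted p = 0.0291) and at least 10.2-fold lower than in colonic FB (adjusted p = 0.0103), against a floor of 3 counts per library. Its SI call was lost without SI pericyte replicate 1 (adjusted p = 0.077), 2 (0.0815) or 3 (0.0704), without SI Fgfr2+ FB replicate 3 (adjusted p = 1.0), and with only the SI libraries compared (adjusted p = 0.0953). The fifth member called by DESeq2 in the SI was *Nrg2*, with 3 counts over the 3 SI pericyte libraries and a ratio of FB to pericytes of 22.5 (95% counting interval 7.7 to 109.1), not called by edgeR in the model of 30 libraries (adjusted p = 0.102). With only the libraries compared edgeR called *Nrg2* and not *Areg*. Intervals and floors cover counting error only.

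Immediate early genes and markers of other cell types were also summed in the pericyte libraries. The immediate early genes summed to 6081.3, 16487.7 and 8163.6 CPM in SI pericytes and 10169.5, 13675.2 and 11702.7 CPM in colonic pericytes, led by *Egr1*, and 9 of 10 were called higher than in FB in the SI and 5 of 10 in the colon, where 9.48% and 9.29% of all tested genes were. Colonic CD81+ FB had a like sum, at 9607.6, 14379.8 and 9244.7 CPM, with *Hbegf* at 0, 3.09 and 3.08 CPM. The 6 smooth muscle markers summed to 4583.9, 3105.2 and 3284.1 CPM in SI pericytes and 10394.8, 11473.4 and 11422.1 CPM in colonic pericytes, led by *Acta2*, with 5 of 6 called higher than in FB in the SI and 6 of 6 in the colon. In FB that sum reached 3740.8 CPM in the SI (PDGFRα hi FB replicate 2), above 2 of the SI pericyte libraries, and 2324.5 CPM in the colon. In the SI *Acta2* missed the fold threshold without pericyte replicate 1 (1.21). *Actg2* was not called by edgeR there without pericyte replicate 1 (1.42, adjusted p = 0.158) or 3 (1.72, 0.0608) or with only the libraries compared (1.86, 0.0702). *Cnn1* was not called without pericyte replicate 2 (2.39, 0.0571) or 3 (2.03, 0.101). The 8 immune markers summed to 444.5, 100 and 116.4 CPM in SI pericytes and 100.1, 176.3 and 38.4 CPM in colonic pericytes, led by *Cd68*, and to at most 68.5 CPM in any other library, with *Cd3e* at 0 in colonic pericytes. The 6 endothelial markers, led by *Pecam1*, summed to 103.7, 137.6 and 105.1 CPM in SI and 52.8, 109.8 and 108.8 CPM in colonic pericytes, beside 204.0 CPM in SMC replicate 3. In FB that sum reached 92.8 CPM in the SI (PDGFRα hi FB replicate 3) and 65.8 CPM in the colon (CD90+ FB replicate 3), so that the colonic pericytes overlapped the colonic FB in it. The 8 epithelial markers summed to 30.2 CPM in SI pericyte replicate 2 and 32.5 CPM in colonic pericyte replicate 2, led by *Vil1*, and to at most 5.88 CPM in every other library, with *Epcam* at 0 in both pericyte populations. The part of these lists in the pericyte results was not tested.

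Between SI and colonic pericytes 0 of the 7 members were called by edgeR, with 5.72% of all tested genes called (2.98% higher and 2.74% lower), 1 member at an unadjusted p below 0.05 and 0 called by DESeq2. *Hbegf* was at 27.3 ± 17.4 and 52.1 ± 20.3 CPM and overlapped (-0.93 in log2, SE 1.41, adjusted p = 0.741). The member under 0.05 was *Nrg1*, which rests on 2 counts in the SI.

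SMC carried *Ereg* and *Nrg1* at levels that overlapped the SI FB, and 0 of the 7 members were called by edgeR, with 5.16% of all tested genes called (3.42% higher and 1.74% lower). At an unadjusted p below 0.05 there were 0 members as well, and DESeq2 called 0. *Ereg* was at 168.4 ± 78.4 CPM against a mean of 124.3 CPM in FB (0.57 in log2, SE 0.31, adjusted p = 0.358). *Nrg1* was at 25.5 ± 18.8 CPM against 30.2 CPM (1.39 in log2, SE 0.70, adjusted p = 0.308), where the fitted value again averages logs and is positive.

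Alternative starts and exons of *Nrg1* make proteins that differ at the N-terminus and in the EGF-like domain, the part that binds the receptor. The annotation holds 18 *Nrg1* transcripts, and their division by start and by exon was chosen after the data had been seen. By the place of their 5′ ends, 8 carry the start of type I neuregulin (near 32009491), 6 that of type III (near 31918391), 2 that of type II (near 32884029) and 2 begin elsewhere. By exon, 6 carry the alpha exon of the EGF-like domain, 9 the beta exon, 1 both and 2 neither. kallisto divides reads shared by transcripts, so these shares are estimates and were not tested.

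**Figure D2:**
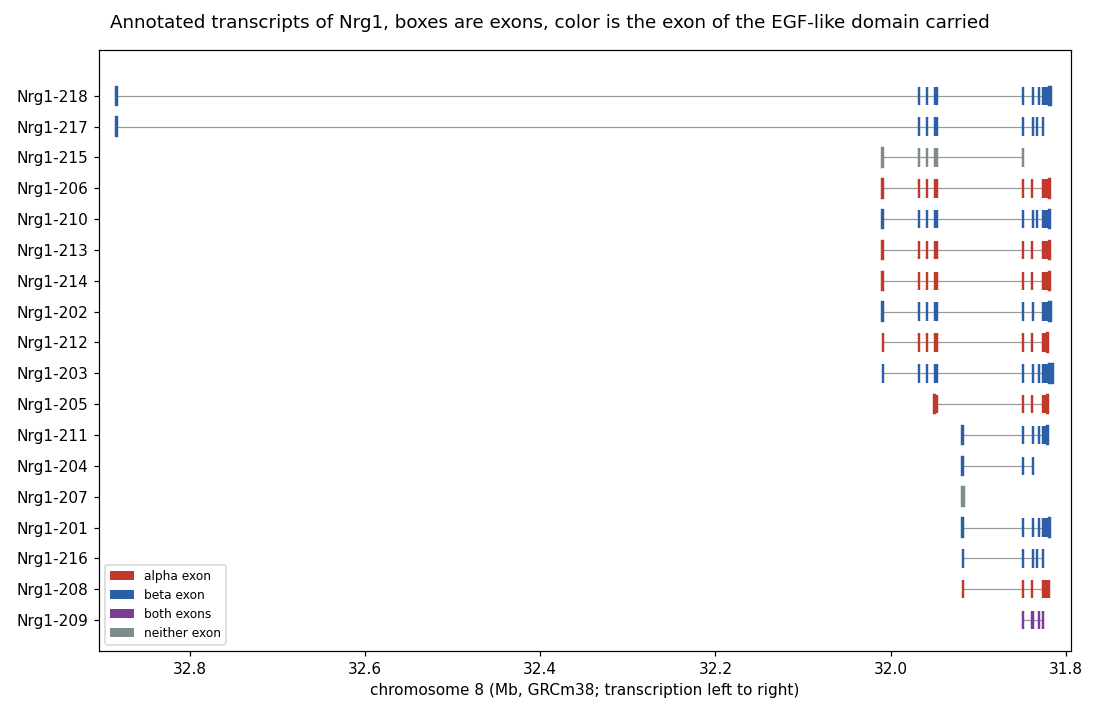
The 18 annotated transcripts of *Nrg1* on chromosome 8 in GRCm38 (horizontal axis in Mb, minus strand, drawn so that transcription runs left to right), with exons as boxes. Color gives the exon of the EGF-like domain that a transcript carries, alpha in 6, beta in 9, both in 1 and neither in 2.

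In colonic PDGFRα hi FB, where *Nrg1* had 2893, 3603 and 2646 counts, type I transcripts held 76.4%, 83.8% and 78.6% of them and type III transcripts 22.7%, 11.8% and 20.0%. Type II transcripts held 0% in each of these libraries. Type I was ahead of type III in every library of colonic PDGFRα hi FB, SI Fgfr2+ FB, SI PDGFRα hi FB and SMC. In SI Fgfr2+ FB type I held 74.0%, 97.6% and 72.2% of 1474, 547 and 144 counts, and in SMC 78.2%, 87.1% and 97.7% of 393, 314 and 43 counts. In colonic Fgfr2+ FB, with 350, 228 and 182 counts, and in colonic CD90+ FB, with 144, 237 and 135 counts, replicate 1 went the other way, at 43.7% and 34.0% type I against 56.3% and 65.9% type III. By the deposited TPM in place of counts the mean type I share was lower, at 60.5% in colonic PDGFRα hi FB, 50.1% in SI Fgfr2+ FB, 79.9% in SMC, 87.7% in SI PDGFRα hi FB and 42.4% in colonic Fgfr2+ FB, against 23.9%, 20.3%, 19.2%, 9.44% and 30.1% of type III. In colonic CD90+ FB the order of the means turned, from 70.2% type I and 29.0% type III by counts to 36.3% and 47.4% by TPM. Neuregulin of type III keeps a membrane anchor at its N-terminus, while type I has an immunoglobulin-like domain there.

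Among counts on alpha or beta transcripts, beta held 60.3%, 45.1% and 75.3% in colonic PDGFRα hi FB, 87.7%, 80.4% and 50.3% in SI Fgfr2+ FB and 46.8%, 57.8% and 44.8% in colonic Fgfr2+ FB. By these estimates both forms had counts in each library of these populations, and the populations overlapped. The share was 87.4%, 52.2% and 100% in colonic CD90+ FB, 74.0%, 79.4% and 15.4% in SMC and 29.4%, 49.9% and 93.5% in SI PDGFRα hi FB, spreads too wide to order them. By the deposited TPM in place of counts, the mean beta share was lower in each of these populations. It fell from 49.8 ± 7.01% to 31.9 ± 7.50% in colonic Fgfr2+ FB and from 72.8% to 57.7% in SI Fgfr2+ FB. In colonic CD90+ FB it fell from 79.9% to 67.9% and in SMC from 56.2% to 47.4%. In PDGFRα hi FB it fell from 60.3% to 52.0% in the colon and from 57.6% to 51.7% in the SI. Of single transcripts, Nrg1-203 (type I, beta) was the steadiest in colonic PDGFRα hi FB with 949, 934 and 963 counts, 31.1% of the pooled total. Nrg1-206 (type I, alpha) had 11, 975 and 0 counts there, which shows how far an estimate for 1 transcript can move between replicates.

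**Figure D3:**
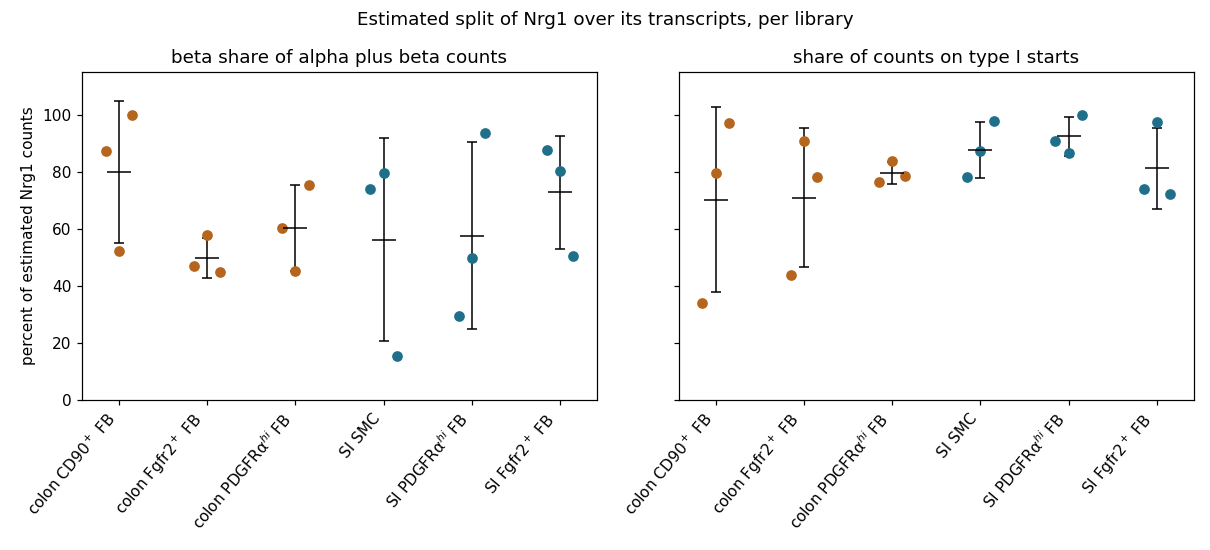
Percent of estimated *Nrg1* counts per library (vertical axis) in the 6 populations with at least 6 *Nrg1* counts in every library, as the beta share of alpha plus beta counts at left and the share on type I starts at right, with lines for the mean and SD of 3 libraries, whose upper ends can pass 100%. In colonic PDGFRα hi FB type I held 76.4% to 83.8%, while the beta share spread from 45.1% to 75.3%.

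Of the 4 other ligands of the family, *Egf* was at 3.44 to 67.6 CPM, with a median of 8.65 CPM, and was called in no comparison. *Nrg3* was at 0 to 5.50 CPM and was not called either. *Epgn*, which encodes epigen, was called higher in SMC than in SI FB (5.97 in log2, SE 1.33, adjusted p = 0.00995 by edgeR), at 1.90, 1.06 and 16.1 CPM, and at most 0.632 CPM in any FB library. The call was lost without SMC replicate 3 (3.90, adjusted p = 0.196), with the replicate block (5.39, 0.0616) and by DESeq2 (5.88, 0.174). Replicate 3 stood apart in other genes too. The endothelial marker *Pecam1* was at 38.9, 40.1 and 165.4 CPM in SMC and the fibroblast markers, led by *Dcn*, summed to 5144.2, 5293.0 and 9346.4 CPM. Of these *Col1a1* was at 2331.8, 1918.9 and 5488.1 CPM, while *Dcn* was highest in replicate 2 (1215.6, 1915.8 and 1441.5 CPM). The epithelial markers summed to 1.37, 4.91 and 5.28 CPM, so that replicate 3 was close to replicate 2 in that sum. They were led by *Krt20* at 0.633, 0.385 and 4.73 CPM, with *Vil1* at 0, 4.24 and 0 CPM and *Epcam* at 0. The part of these markers in the *Epgn* call was not tested. *Nrg4*, a ligand of ERBB4, was at 14.2, 3.03 and 0.123 CPM in SI pericytes and had no count in colonic pericytes, at least 18.9-fold higher in the SI (adjusted p = 0.0411), a limit that fell to 5.16-fold without SI replicate 1, the library at 14.2 CPM. That call was lost without SI replicate 1 (adjusted p = 0.114) and without colonic replicate 1 (0.0912), 2 (0.0949) or 3 (0.0953), as well as with the replicate block (0.0561). With only the libraries compared *Nrg4* did not pass the filter, and that fit called 0 genes. Of the 31-base stretches of *Nrg4*, 7.25% occur in other genes.

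Of the 4 receptor genes, *Egfr* was the most abundant in every population. It was at 1212.5, 877.0 and 730.2 CPM in colonic CD81+ FB, above every other library, and at 58.9, 81.1 and 190.2 CPM in SMC. *Egfr* was called lower in SMC than in SI FB (-1.76 in log2, SE 0.40, adjusted p = 0.00478 by edgeR) and lower in colonic pericytes than in colonic FB (-1.60, SE 0.39, adjusted p = 0.00362). The first call was lost without SMC replicate 1 (-1.46, adjusted p = 0.0521), and the other without colonic pericyte replicate 1 (-1.40) or 3 (-1.38), where it missed the fold threshold, and with length-scaled TPM counts (-1.28, adjusted p = 0.0811). *Egfr* did not pass in CD81+ FB against CD90+ and Fgfr2+ FB (1.32 in log2, SE 0.37, adjusted p = 0.0605).

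The other receptor genes were lower. *Erbb2* was at 1.49 to 109.6 CPM with overlap between all neighbours and was called in no comparison. *Erbb3* had no count in 13 of the 30 libraries and at most 3.25 CPM outside colonic pericytes, where it was at 0, 28.6 and 0 CPM. Its call there as higher (5.15 in log2, SE 1.48, adjusted p = 0.0135 by edgeR) rests on replicate 2, the library whose epithelial markers summed to 32.5 CPM, and without it the value was -4.54 (adjusted p = 0.333). With the replicate block it was not called (6.48, adjusted p = 0.0502). The part of those markers in it was not tested. *Erbb4* had 1 count in 1 library and was not tested by edgeR. In colonic PDGFRα hi FB, where *Nrg1* was at 391.2 CPM, *Erbb3* was at 0.123, 0 and 0.407 CPM.

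Of 12 genes of ligand shedding, *Adam19*, which encodes a membrane metalloprotease, was called higher in PDGFRα hi FB of both tissues. *Adam12*, which encodes another, was called in the SI and not in the colon, and the difference between these results was not tested. *Adam19* was at 3556.7 ± 535.5 CPM in SI and 2132.9 ± 256.0 CPM in colonic PDGFRα hi FB, above every library of the other FB of its tissue. In the SI 2 of 12 were called higher, *Adam19* (2.74 in log2, SE 0.35, adjusted p = 3.14e-06 by edgeR) and *Adam12* (2.13, SE 0.54, adjusted p = 0.0196), and 0 lower, where 1.68% of all tested genes were called higher and 1.7% lower, with a median of 0.16 over the list against 0.01 over all genes. In the colon *Adam19* alone was called (1.52, SE 0.32, adjusted p = 0.00279), where 2.21% of all tested genes were called higher, with a list median of -0.28 against -0.06. *Adam12* differed there by 0.95 (SE 0.51, adjusted p = 0.509) and overlapped. The value of *Adam19* in the colon stands at the threshold and did not pass it without CD81+ FB replicate 3 (1.5), Fgfr2+ FB replicate 1 (1.44) or PDGFRα hi FB replicate 1 (1.48) or 3 (1.46). The SI call of *Adam12* was lost without SI CD34+ FB replicate 1 (2.06, adjusted p = 0.0569) or 2 (2.02, 0.0619), SI PDGFRα hi FB replicate 1 (2.00, 0.101) or 2 (2.07, 0.0813), or SI Fgfr2+ FB replicate 2 (1.95, 0.0583).

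In pericytes the direction of those proteases was the reverse. *Adam19* differed from FB by -2.13 in the SI and -2.67 in the colon and *Adam12* by -3.77 and -2.74, all called by edgeR. In the SI *Adam19* was at 402.4, 45.8 and 235.6 CPM in pericytes and overlapped CD34+ FB (342.8, 309.1 and 567.7 CPM). In the colon *Adam12* was at 5.06, 11.3 and 5.6 CPM in pericytes and overlapped CD81+ FB (9.99, 175.6 and 113.1 CPM). *Timp3*, an inhibitor of metalloproteases, was higher in SI pericytes (3.55 in log2, SE 0.25, adjusted p = 1.51e-11), at 3811.0 ± 959.3 CPM. *Rhbdl2*, a rhomboid protease, was also higher there (3.07, SE 0.70, adjusted p = 0.00206). In all, 2 of 12 were higher and 2 lower in SI pericytes (median -0.35, all genes -0.02), and 0 higher and 2 lower in colonic pericytes (0.02, all genes 0.01), counts to be read against the 16.6% and 16% of all tested genes called in these comparisons. *Adam17*, the main sheddase of several of these ligands, was at 8.37 to 201.1 CPM and was called in no comparison.

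*Timp3* was also called elsewhere. It was higher in SI CD34+ than in SI Fgfr2+ FB (2.98 in log2, SE 0.36, adjusted p = 2.24e-05 by edgeR) and lower in SI than in colonic Fgfr2+ FB (-3.27, SE 0.36, adjusted p = 5.91e-06). Its tissue difference differed between PDGFRα hi FB and Fgfr2+ FB (3.42, SE 0.48, adjusted p = 0.000529). *Adam12* was lower in SMC than in SI FB (-3.40, SE 0.67, adjusted p = 0.00112). With length-scaled TPM counts *Adam12* was not called in SMC (-1.61, adjusted p = 0.0697), colonic pericytes (-1.28, 0.0781) or SI PDGFRα hi FB (1.43, 0.134). In the other 3 comparisons 0 of 12 shedding genes were called by edgeR, with 2 at an unadjusted p below 0.05 in each. These were colonic CD81+ FB, SI against colonic PDGFRα hi FB and SI against colonic pericytes, where edgeR called 1.57%, 0.963% and 5.72% of all tested genes. DESeq2 called 1, 1 and 2 of the 12 there, beside 616, 403 and 2407 of the 17326 genes it tested.

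Of 9 inhibitors of the receptors, *Errfi1*, which encodes an intracellular inhibitor of EGFR, moved most. It was at 651.5, 802.0 and 516.4 CPM in SI pericytes and 559.7, 700.9 and 872.1 CPM in colonic pericytes, and at most 295.4 CPM in any other library. *Errfi1* was called higher in pericytes by 3.28 (SE 0.39, adjusted p = 2.72e-07 by edgeR) in the SI and 3.40 (SE 0.36, adjusted p = 2.63e-08) in the colon. In the SI 2 of 9 were higher and 0 lower (median 0.08, all genes -0.02), and in the colon 1 and 0 (0.77, all genes 0.01), where 9.48% and 9.29% of all tested genes were called higher. The other one, *Socs5*, lost its call without SI pericyte replicate 1 (0.80, adjusted p = 0.488, from 2.06). In colonic PDGFRα hi FB *Errfi1* was called lower (-2.08, SE 0.49, adjusted p = 0.0096), the only one of 9 called where 1.3% of all tested genes were called lower (median -0.21, all genes -0.06), and that call was lost without PDGFRα hi FB replicate 1 (-2.13, adjusted p = 0.0586), 2 (-1.94, 0.0908) or 3 (-2.17, 0.0509).

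Of the 13 adaptors and kinases of the ERK cascade, edgeR called 1 in 1 of the 11 comparisons. This was *Gab1*, a docking protein of the receptors, higher in colonic pericytes (1.57 in log2, SE 0.26, adjusted p = 5.74e-05), which fell below the fold threshold without colonic pericyte replicate 3 (1.42). The list median there was 0.22, against 0.01 over all genes, of which 16% were called.

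Of 12 genes induced by ERK that include its feedback inhibitors, *Spry4*, which encodes a Sprouty protein, was called higher in PDGFRα hi FB of both tissues. It was at 583.9, 386.6 and 395.1 CPM in those of the SI and 197.0, 142.3 and 215.0 CPM in those of the colon, and at most 54.7 CPM in the other FB libraries. The log2 fold change was 3.91 (SE 0.46, adjusted p = 1.01e-06 by edgeR) in the SI and 2.84 (SE 0.40, adjusted p = 1.91e-05) in the colon. It was the only one of 12 called in each, where 1.68% and 2.21% of all tested genes were called higher, with list medians of 1.18 (all genes 0.01) and 1.17 (all genes -0.06).

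In pericytes *Spry4* and *Dusp4*, which encodes an ERK phosphatase, were called higher in both tissues. *Spry4* was at 270.8, 490.1 and 276.6 CPM in SI pericytes and overlapped SI PDGFRα hi FB, whose mean was higher (455.2 against 345.8 CPM). In colonic pericytes *Spry4* was at 283.2, 427.1 and 281.7 CPM, above every colonic FB library. *Dusp4* was at 45.1, 33.3 and 26.7 CPM in SI pericytes and 16.9, 120.9 and 83.5 CPM in colonic pericytes, and at most 3.92 CPM elsewhere. Its log2 fold change was 6.02 (SE 1.14, adjusted p = 0.000279 by edgeR) and 7.79 (SE 1.05, adjusted p = 1.84e-06). In the SI 5 of 12 were higher and 0 lower (median 1.82, all genes -0.02), and in the colon 3 and 0 (median -0.31, all genes 0.01), beside 9.48% and 9.29% of all tested genes called higher. *Dusp6* in the SI lost its call without pericyte replicate 1 (1.08, adjusted p = 0.404, from 2.51), as did *Dusp5* in the colon without pericyte replicate 1 (3.93, adjusted p = 0.0501, from 3.90) or 3 (2.87, 0.182) or with the replicate block (3.46, 0.0594).

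In SMC 3 of 12 genes of that list were called lower than in SI FB and 1 higher, where 1.74% of all tested genes were called lower and 3.42% higher, with a median of -1.32 against -0.04 over all genes. *Dusp6* differed by -4.74 (SE 1.06, adjusted p = 0.00392 by edgeR), *Spry4* by -3.57 (SE 0.56, adjusted p = 5.94e-05) and *Spry2* by -3.52 (SE 0.61, adjusted p = 0.00021). The gene called higher, *Fosl1*, lost its call without SMC replicate 3 (3.69, adjusted p = 0.161, from 5.34). Between SI and colonic pericytes 2 of 12 were higher in the SI (median 0.77, all genes 0.0), where 2.98% of all tested genes were. These were *Spry2* (2.75, SE 0.63, adjusted p = 0.0103), not called without SI replicate 1 (1.89, adjusted p = 0.0775) or with only the libraries compared (2.77, 0.336), and *Fosl1*, not called without any 1 of the 3 colonic libraries or SI replicate 2 (adjusted p = 0.0631 to 0.0971) or with the replicate block (0.0528). With only the libraries compared *Fosl1* did not pass the filter, and that fit called 0 genes.

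Of 5 surface partners of the ligands, *Cd44*, which encodes a hyaluronan receptor that can carry heparin-binding ligands, was called higher in colonic PDGFRα hi FB. It was at 874.9, 999.1 and 1075.9 CPM there and at most 346.9 CPM in any other library. The log2 fold change was 2.42 (SE 0.29, adjusted p = 1.32e-06 by edgeR) against the other colonic FB, and SI differed from colonic PDGFRα hi FB by -2.50 (SE 0.41, adjusted p = 0.000467). The tissue difference of *Cd44* differed between PDGFRα hi FB and Fgfr2+ FB (-3.05, SE 0.56, adjusted p = 0.00463). In each of the first comparisons it was 1 of 5 called, where 3.51% and 0.963% of all tested genes were, with list medians of 0.43 (all genes -0.06) and 0.10 (all genes 0.02).

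*Hspg2*, which encodes the heparan sulfate proteoglycan perlecan, was called higher in SI PDGFRα hi FB (1.70 in log2, SE 0.24, adjusted p = 1.96e-05 by edgeR) and lower in SI (-1.59, SE 0.26, adjusted p = 4.87e-05) and colonic pericytes (-1.68, SE 0.26, adjusted p = 1.62e-05). In SI pericytes the value was 0.01 with length-scaled TPM counts, and missed the fold threshold without SI pericyte replicate 2 (-1.36). Its tissue difference also differed between the FB subsets (1.83, SE 0.41, adjusted p = 0.028), a call lost without any 1 of 9 of the 12 libraries (1.65 to 1.91, adjusted p = 0.0579 to 0.106) and with length-scaled TPM counts (2.11, adjusted p = 0.352). *Cd9*, a tetraspanin that binds the precursor of HB-EGF, was lower in SI than in colonic pericytes (-2.44, SE 0.58, adjusted p = 0.014), but not with only the libraries compared (-2.40, adjusted p = 0.625).

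Immediate early genes, which answer ERK and other signals within minutes, including the handling of tissue, differed between the populations. In colonic PDGFRα hi FB 4 of 10 were called lower than in the other colonic FB and 0 higher (median -1.71, all genes -0.06), where 1.3% of all tested genes were called lower. Their sum was 1472.6, 1654.9 and 2191.3 CPM there, against 2385.9, 3291.4 and 4399.3 CPM in CD90+ FB. In SI PDGFRα hi FB 0 of 10 were called by edgeR (median -0.60, all genes 0.01), with 5 at an unadjusted p below 0.05 and 0 called by DESeq2. In SI CD34+ against Fgfr2+ FB 7 of 10 were higher (median 2.72, all genes 0.02), beside 0.838% of all tested genes, and in SI against colonic Fgfr2+ FB 9 of 10 were lower (median -3.54, all genes -0.01), beside 0.941%. *Fos* differed by -4.26 (SE 0.59, adjusted p = 9.36e-05 by edgeR) and *Egr1* by -3.12 (SE 0.39, adjusted p = 2.48e-05) in the last comparison. In SMC 3 of 10 were lower than in SI FB (median -0.83, all genes -0.04), beside 1.74% of all tested genes, at sums of 886.9, 968.4 and 1254.2 CPM led by *Dusp1*. These were *Atf3* (-3.52, adjusted p = 0.00762), *Ier2* (-3.09, 0.0256) and *Egr1* (-1.63, 0.00125), and their part in the other SMC results was not tested. The tissue difference differed between the subsets for *Dusp1* (4.16, SE 0.74, adjusted p = 0.00378) and *Egr1* (2.23, SE 0.51, adjusted p = 0.0321), the latter not without any 1 of 10 of the 12 libraries (2.00 to 2.41, adjusted p = 0.053 to 0.124) or with length-scaled TPM counts (2.15, 0.0546).

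Some of those calls were lost when 1 library was left out or an alternative was used. In colonic PDGFRα hi FB *Fos*, at -1.83 in log2, was not called without PDGFRα hi FB replicate 1 (-1.59, adjusted p = 0.173), 2 (-1.91, 0.0854) or 3 (-2.00, 0.0636). *Zfp36*, at -1.94, was not called there without replicate 1 (-1.78, adjusted p = 0.0825) or 2 (-1.93, 0.0587), and *Atf3*, at -3.53, not without replicate 2 (-3.01, 0.0519). Between SI and colonic Fgfr2+ FB *Atf3* was not called without SI replicate 1 (-3.96, adjusted p = 0.0606) or with length-scaled TPM counts (-3.89, 0.0615), *Junb* not without SI replicate 2 (-3.14, 0.0603), and *Nr4a1* not without SI replicate 1 (-3.12, 0.0889) or 2 (-3.09, 0.076) or with only the libraries compared (-3.41, 0.0697). In SI CD34+ against Fgfr2+ FB *Fosb* was not called without CD34+ FB replicate 3 (2.16, adjusted p = 0.106) or Fgfr2+ FB replicate 1 (2.36, 0.0954), *Jun* not without CD34+ FB replicate 1 (1.62, 0.105) or 3 (1.25, 0.299) or Fgfr2+ FB replicate 2 (1.31, 0.243) or 3 (1.59, 0.142), and *Nr4a1* not without any 1 of the CD34+ FB libraries or Fgfr2+ FB replicate 1 or 2 (2.38 to 2.97, adjusted p = 0.0853 to 0.307). With only the libraries compared, these 3 genes and *Zfp36* (2.61, adjusted p = 0.0564) were not called there. *Jun* and *Nr4a1* were not called there with RLE normalization (adjusted p = 0.0557 and 0.0621) or length-scaled TPM counts (0.0733 and 0.0809) either, nor *Jun* with the replicate block (0.0556) or *Nr4a1* with the filter of 10 counts (0.0515). In SMC *Atf3* was not called without SMC replicate 2 (-3.17, adjusted p = 0.0586) or 3 (-3.32, 0.0737), *Egr1* missed the fold threshold without SMC replicate 3 (-1.46), and *Ier2* was not called without SMC replicate 1 (-3.35, adjusted p = 0.0645), 2 (-3.34, 0.0708) or 3 (-2.67, 0.192) or with only the libraries compared (-3.06, 0.0806). *Junb* in colonic pericytes was not called without pericyte replicate 2 (1.58, adjusted p = 0.0519). Where these genes and a ligand differ in the same comparison, their part in the ligand's difference was not tested.

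Genes whose mean log2 CPM over the 10 populations was most like a member's were found by Pearson's r among 14225 genes. The 10 points share libraries across genes, and the libraries differ in depth. Nearest to *Nrg1* were *Erc1* (r = 0.949), *Foxl1* (0.929) and *Fhl2* (0.927), each highest in colonic PDGFRα hi FB. Nearest to *Ereg* were *Arhgap28* (0.987), *Dkk3* (0.978) and *Pcdh7* (0.973). Nearest to *Hbegf* were *Higd1b* (0.979), *Hrc* (0.975) and *Ebf2* (0.975), the first 2 highest in colonic and *Ebf2* in SI pericytes. For the low members the nearest were *Cenps* (0.956) to *Nrg2*, *Unc13b* (0.949) to *Areg*, *Msantd3* (0.973) to *Btc* and *Katnal2* (0.902) to *Tgfa*.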

How the data were processed

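Bulk RNA-seq of 30 libraries, 3 of each of 10 sorted populations, was used. The labels give Trim Galore 0.4.0, FastQC 0.11.2 and kallisto 0.42.5 with mm10 (GRCm38). The authors deposited an estimated count (the expected number of reads, not normalized) per library for 98492 transcripts. The deposited TPM was used only in alternatives. The deposited effective length, in bases, was used for levels per kb. The transcript release behind kallisto is not stated. Here 97116 transcripts were matched by Ensembl identifier to GENCODE M21, and estimated counts were summed by symbol to 32316 genes and rounded; 97.8% to 99.2% of each library's counts matched. Depth is the sum of estimated counts.

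CPM used TMM factors of edgeR 4.0.16 (R 4.3.3). Genes with 6 or more counts in 3 or more libraries (17542) were tested in 1 model with a mean per population, in 11 comparisons, with edgeR's quasi-likelihood test and Benjamini-Hochberg adjustment. The thresholds are those the study set between tissues, used here in every comparison, and the filter takes its limits from the study, which filtered transcripts, and applies them to genes. A population with no count was set at a floor of 3 counts per library, and counting intervals are exact Poisson intervals at 95%. The procedure was tested on simulated data. Likeness used genes with a mean of 5 CPM or more in some population. The genes named are the members, the genes of 19 fixed lists that were called or most abundant, and the genes most like each member. The members and lists were chosen with earlier results of these data known. Alternatives were RLE normalization, DESeq2 1.42.0, no filter, a filter of 10 counts in 3 libraries of a population, the replicate block, length-scaled TPM counts, only the libraries compared, a fold threshold of 1, TPM for levels and shares, and each library left out. For list genes other than the members these alternatives were added after seeing the data.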

Additional observations from a re-analysis of the deposited data

Results flagged for a closer look

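The difference between SI and colon differed between PDGFRα hi FB and Fgfr2+ FB for 116 of all tested genes (0.661%) by edgeR's interaction test. Among them were *Ereg* of the 7 ligands described, *Timp3* of 12 genes of ligand shedding, *Cd44* and *Hspg2* of 5 surface partners, and *Dusp1* and *Egr1* of 10 immediate early genes. For *Ereg* the interaction was -2.68 on the log2 scale, and the call was lost without any 1 of 5 of the 12 libraries (-2.31 to -2.72). For *Cd44* it was -3.05. For *Timp3* it was 3.42. For *Dusp1* it was 4.16. For *Egr1* it was 2.23, a call lost without any 1 of 10 libraries (2.00 to 2.41). For *Hspg2* it was 1.83, a call lost without any 1 of 9 libraries (1.65 to 1.91). The gates of both subsets differed between the tissues, and gate and tissue cannot be told apart.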

How the results depend on the processing

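Of the counts of members called and the levels and shares of the ligands, 187 values under an alternative stayed within the bounds set for them and 26 did not, and for single genes 1934 kept their direction and side of the threshold, 122 lost the call, 14 gained it and 2 changed sign. The 2 were *Hspg2* in SI pericytes against FB, at 0.01 with length-scaled TPM counts, and *Erbb3* in colonic pericytes, at -4.54 without replicate 2 and up to 6.28 without other libraries. Markers of cell types are not in this tally. Among them *Cdh1* in colonic pericytes against FB changed sign, from 4.29 to -2.02 without colonic pericyte replicate 2. In SI PDGFRα hi FB, 1 member (*Ereg*) was called at a fold threshold of 1. In colonic CD81+ FB, DESeq2 called 3 members, and 2 were called with the filter of 10 counts, with no filter, with only the libraries compared and with the replicate block, against 1. Leaving out a library gave 1 to 2 there. Between SI and colonic PDGFRα hi FB, DESeq2 called 2, and leaving out a library gave 0. Between SI and colonic Fgfr2+ FB, leaving out a library gave 0 to 1. In the interaction, DESeq2, the filter of 10 counts, no filter, only the libraries compared and the replicate block gave 2, and leaving out a library 0 to 1. The beta share of *Nrg1* in colonic Fgfr2+ FB was 31.9% by TPM, and it was also lower by TPM in the other populations given above. The cause was not tested.

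Libraries of the same replicate number showed little likeness. Their deviations from population means correlated by 0.008 on average over 135 pairs (-0.112 to 0.135). This cannot show whether libraries share a mouse, since the numbers need not follow the mice. The replicate block therefore serves only as an alternative. Genome-wide, DESeq2 called 598 genes against 213 in SI CD34+ against Fgfr2+ FB, 616 against 275 in colonic CD81+ FB, 814 against 255 and 403 against 169 between the tissues in Fgfr2+ FB and PDGFRα hi FB, 2407 against 1003 in pericytes, 891 against 593 in SI PDGFRα hi FB and 367 against 116 in the interaction. With only the libraries compared, edgeR called 0 genes between SI and colonic pericytes, with 1090 at an unadjusted p below 0.05. It called 395 in SI CD34+ FB, 406 between PDGFRα hi FB and 201 in the interaction. With no filter 421 were called in colonic CD81+ FB. Leaving out a library gave 616 to 1711 in pericytes between tissues, 126 to 180 in SI CD34+ FB, 108 to 122 between PDGFRα hi FB, 162 to 221 between Fgfr2+ FB, 530 to 921 in SMC, 404 to 551 in SI and 406 to 601 in colonic PDGFRα hi FB, and 63 to 97 in the interaction. With 3 libraries a population and a smallest library of 2245052 counts, members at a few counts give ratios with wide intervals.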
